A study of Mus musculus with 4 samples.

Results

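The genes described here are the glutathione, thioredoxin and peroxide defence genes: the cytosolic, mitochondrial and microsomal glutathione S-transferases, the glutathione peroxidases, the peroxiredoxins, the thioredoxins and their reductases, the enzymes that make and recycle glutathione, catalase, the superoxide dismutases, and the NRF2 regulators with a pair of their standard target enzymes. They were chosen by gene symbol, without use of any measured value, and numbered 59 of the 53295 features of the deposited table. Poly(A) RNA had been sequenced from female germline stem cells, cultured cells of the mouse strain C57BL/6 past passage 20 per the labels, after 4 h. One group received spermidine (SPD), a polyamine studied as an inducer of autophagy, and the other was its Control, labelled as the same cells. Each group had 2 libraries. No dose is labelled, and nothing states whether replicates were independent cultures. The p-values below therefore describe variation among 4 libraries, some or all of which may be technical.

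Glutathione is a small thiol peptide kept reduced at the expense of NADPH. Glutathione peroxidases, peroxiredoxins and catalase destroy peroxides, superoxide dismutases produce hydrogen peroxide from superoxide, and glutathione transferases join glutathione to reactive compounds. Thioredoxin and its reductase supply electrons to the peroxiredoxins. Many of these genes are targets of the transcription factor NRF2, encoded by Nfe2l2, which the adaptor KEAP1 holds back until oxidants or electrophiles modify it.

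The SPD libraries held 787600 and 1718944 counts, against 7206176 and 7128901 in the Control libraries. A single ribosomal RNA row, AY036118, took 29.6% and 30.7% of SPD counts and 1.68% and 1.64% of Control counts. Olfactory and vomeronasal receptor genes, which belong to sensory neurons, carried counts on 862 of 1455 gene models in SPD replicate 1 and on 121 in SPD replicate 2, against 22 and 61 in the Control libraries, or 3.20 and 0.173 counts per kb against 0.0597 and 0.154. Markers of other ovarian cell types, oocytes included, were higher in SPD: 7 of 8 tested granulosa and theca genes, 4 of 4 oocyte genes, 4 of 4 surface epithelium genes, 4 of 6 stroma genes and 3 of 3 endothelium genes were called higher, and so was 1 of 2 erythroid genes. Listed granulosa and theca genes together held 0.258% and 0.573% of SPD counts, against 0.0155% and 0.0130% of Control counts. Of the tested haematopoietic genes 3 of 3 fell. The listed haematopoietic genes held 0.0160% and 0.00483% of SPD counts against 0.135% and 0.102% of Control counts. Of 6 mast cell genes only Cpa3 could be tested, and it fell. The untested Mcpt4 and Tpsb2 each had 11 and 0 counts in SPD and 0 and 0 in Control. Mcpt8 had 1 and 0 counts in SPD and 8 and 5 in Control. The mast cell list held 0.00419% and 0.000407% of SPD counts against 0.0129% and 0.00777% of Control counts. Of 8 germline stem cell markers, the 2 that could be tested, Ifitm3 (2.83 ± 0.68, edgeR adjusted p = 0.0133) and Dppa3 (8.02 ± 1.38, edgeR adjusted p = 0.00564), were called higher, and the list held 0.0123% and 0.0239% of SPD counts against 0.000708% and 0.00191% of Control counts. Over all tested genes 24.8% were called higher and 3.99% lower. Among the marker genes called higher, both Control libraries reached the low-count filter's limit only for Inhbb, Star, Col1a1, Col1a2, Col3a1, Ifitm3 and Hba-a1. In the others only SPD carried the gene over the filter, so a rise is built in. Dppa3 had 9 and 263 counts in SPD and 2 and 3 in Control, so its value rests mostly on SPD replicate 2. The defining germ cell genes Ddx4 and Dazl had 1 and 2 counts in the SPD libraries together and 0 and 1 in the Control libraries together. They were measured on 434 and 432 bases, where the receptor level of SPD replicate 1 alone would give 1.39 and 1.38 counts. Xist, an RNA of the X chromosome, had 114 and 588 counts in SPD and 5 and 2 in Control. Fits at thinned or equal depth, with AY036118 left out, and after subtraction of the receptor level are given beside the calls they change. The part of the cell type markers in the results was not tested, and in bulk RNA fewer cells of a type and less RNA per cell cannot be told apart.

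Of the 59 genes, 33 had enough counts to be tested and 26 did not. Each gene was counted on bases that no other transcript row covers, and 17 of the 59 had under 300 such bases. Gss, which encodes glutathione synthetase, and Txnrd3 had none, so they could not be measured at all. Among the untested genes, 16 had under 300 bases of their own, 10 had no count in any library and the highest total over the 4 libraries was 47. A gene without counts here is therefore not shown to be silent.

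Sulfiredoxin, glutathione reductase and the modifier subunit of glutathione synthesis fell in SPD, and 9 other members were called higher, most of them genes with almost no Control reads. A gene was called when its edgeR quasi-likelihood p, adjusted by the Benjamini-Hochberg method across the 7836 genes tested, was under 0.05. By this rule 9 members were called higher (Gclc, Gpx3, Gpx7, Gpx8, Gsta4, Gstk1, Gstm2, Mgst3 and Sod3) and 3 lower (Gclm, Gsr and Srxn1). The legacy form of the same edgeR test, the default of the version used, called 8 higher and 2 lower, without Gsta4 and Gclm; the form reported here was adopted after both had been fitted and their calls seen. The background shares were 24.8% of all tested genes called higher and 3.99% called lower. The median log2 fold change of the 33 members was -0.31, with 15 positive and 18 negative values, against 0.23 for all tested genes. At equal depth without AY036118 the order turned, with 0.34 for members and 0.19 for all genes. That fit tested fewer genes, 26 members and 4012 in all, so the medians are not over the same genes. Both SPD libraries lay on the same side of both Control libraries for 22 of the 33 members, beside 66.2% of all tested genes. Of the 33, 7 passed the low-count filter without both Control libraries reaching its limit of 2.26 CPM (counts scaled to a common library size), and 6 of the 9 higher calls came from those 7. Where only the SPD libraries carry a gene over the filter, a rise is built in, so these calls do not bear on the direction of the group. Among the 26 members that both Control libraries carried over the limit, 3 were higher and 3 lower, with a median of -0.64. In all 5135 tested genes of that kind, 3.51% were higher and 6.1% lower, and the median was -0.54.

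**Figure D1:**
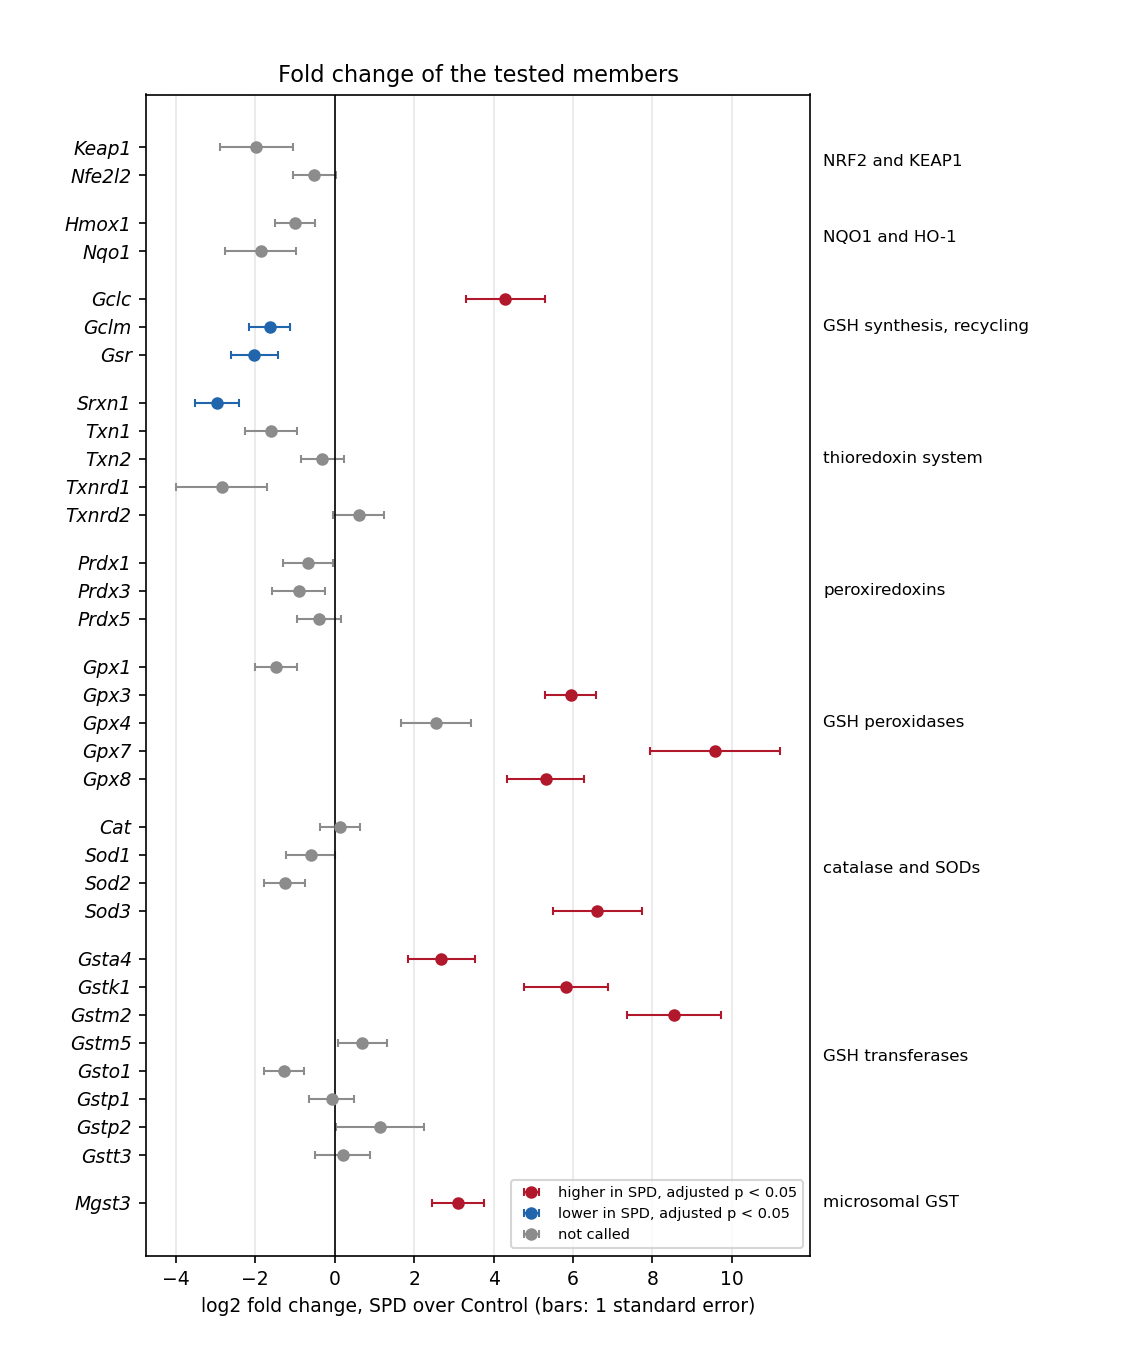
Log2 fold change of SPD over Control for the 33 tested genes, ordered by role, with bars of 1 standard error, back-calculated from the test. Red points were called higher, blue points lower and grey points not called. Higher calls reach from 2.69 for Gsta4 to 9.58 for Gpx7, and lower calls from -1.64 for Gclm to -2.97 for Srxn1.

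The regulators themselves were not called. Nfe2l2, the NRF2 gene, had 148 and 313 counts in SPD and 1338 and 2528 in Control. As TMM-scaled CPM, which corrects for library size and composition and is the scale of all CPM values below, that was 169 and 223 in SPD against 194 and 366 in Control. The groups overlapped, and the log2 fold change was -0.51 ± 0.55 SE (edgeR adjusted p = 0.521). Keap1 had 5.72 and 3.56 CPM in SPD, against 14.3 and 20.7 CPM in Control. Both SPD values lay below both Control values, but they rest on 5 counts each, and the change was not called (-1.97 ± 0.92, edgeR adjusted p = 0.143). Hmox1, the haem oxygenase that degrades free haem, had 111 and 140 CPM in SPD and 243 and 258 CPM in Control. Its groups did not overlap, with a log2 fold change of -0.99 ± 0.50 that was not called (edgeR adjusted p = 0.18). Nqo1, a quinone reductase often read as a marker of NRF2 activity, had 6 and 5 SPD counts against 139 and 109 Control counts, or 6.86 and 3.56 CPM against 20.1 and 15.8 CPM. This too was not called (-1.87 ± 0.90, edgeR adjusted p = 0.158). In SPD replicate 1 the receptor background alone would give 4.96 counts over the 1552 bases of Nqo1, close to the 6 seen. For Keap1 it would give 3.31 of the 5 counts, and all Keap1 counts lay on a single transcript row.

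Glutathione synthesis begins with glutamate-cysteine ligase, whose catalytic subunit is Gclc and whose modifier subunit is Gclm. Gclm (chr3:122245487-122267215, plus strand, GRCm38) had 112 and 195 counts in SPD and 3276 and 2483 in Control. As CPM it averaged 133 ± 7.59 in SPD and 417 ± 81.6 in Control (SD, n = 2 each), without overlap. It fell by 1.64 ± 0.52 on the log2 scale (edgeR adjusted p = 0.0427), the least secure of the 3 lower calls. Gclm was called in 6 of 17 alternative settings, and its edgeR adjusted p was 0.0504 with the legacy test, 0.101 with Controls thinned, 0.182 at equal depth and 0.0637 with the receptor background subtracted. Gsr (chr8:33653238-33698162, plus strand), the reductase that regenerates glutathione with NADPH, had 46 and 152 counts in SPD and 2668 and 1905 in Control. It had 52.6 and 108 CPM in SPD and 387 and 276 CPM in Control, and fell by 2.02 ± 0.58 (edgeR adjusted p = 0.0297). Gsr was called in 9 of 17 alternative settings. Its edgeR adjusted p was 0.0625 with Controls thinned to SPD depth, 0.0801 at equal depth without AY036118 and 0.0815 with a replicate block, and its call was also lost without either Control library or without SPD replicate 1. Gclc was called in the other direction on very few reads. It had 8 and 6 counts in SPD and 1 and 3 in Control, on 84 bases of its own, and rose by 4.30 ± 0.99 (edgeR adjusted p = 0.00901). All of these counts lay on a predicted transcript with 80 bases of its own. The curated Gclc transcript had 4 bases of its own and 0 counts in every library, so it was in effect not measured. Gclc passed the filter only through SPD, so a rise is built in. The receptor background would give 0.268 of its 8 counts in SPD replicate 1. It was called in 9 of 13 alternative settings, and DESeq2 was among those that lost the call.

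In the thioredoxin system the clearest value was that of Srxn1, or sulfiredoxin, which restores peroxiredoxins that peroxide has over-oxidised. Srxn1 (chr2:152105524-152111376, plus strand) had 48 and 67 counts in SPD and 2916 and 2596 in Control. That was 54.9 and 47.7 CPM in SPD against 423 and 376 CPM in Control, far apart and with little spread in either group. It fell by 2.97 ± 0.55 on the log2 scale (edgeR adjusted p = 0.00739), and over 17 alternative settings its log2 fold change ranged from -3.45 to -2.43. Txn1, the cytosolic thioredoxin, had 119 and 392 CPM in SPD and 920 and 646 CPM in Control. The groups did not overlap, but the SPD libraries differed from each other and the change was not called (-1.61 ± 0.66, edgeR adjusted p = 0.102). Txn2, the mitochondrial thioredoxin, had 158 and 321 CPM in SPD and 301 and 297 CPM in Control, so that the Control values lay between those of SPD (-0.31 ± 0.54, edgeR adjusted p = 0.701). Txnrd1, the cytosolic selenoprotein that reduces thioredoxin, had 1 and 1 counts in SPD and 50 and 40 in Control. The ratio of its pooled share of counts was 0.127 (95% counting interval 0.0152 to 0.473), and the fit did not call it (-2.85 ± 1.14, edgeR adjusted p = 0.0899). Its mitochondrial counterpart Txnrd2 had 27.4 and 42.7 CPM in SPD and 27.2 and 19.7 CPM in Control (0.60 ± 0.64, edgeR adjusted p = 0.517).

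Promoter sequence was inspected for the antioxidant response element, the site that NRF2 recognises with small MAF proteins, to show where members carry its letters. The core TGACNNNGC was searched on both strands in windows of 300 bases, from 250 before to 50 after each RefSeq start site of the GRCm38.p6 build. Of 50 members with a promoter in that table, 10 held a match (20.0%), against 14.0% of 27025 genes in all and 15.7% of 5375 tested genes. Tested members with a match before the start site were Gclm, Gstm5, Nfe2l2, Prdx1, Sod1 and Txnrd1, and in Srxn1 the match lay after it. The 4 stretches shown are a selection, of the regulator itself and of enzymes of the pathway. Those of Gstm5, Sod1 and Srxn1 are not shown. Capitals mark the core or its reverse complement, and each sequence runs 5′ to 3′ on the strand of the gene.
Gclm, chr3:122245403-122245451, plus strand: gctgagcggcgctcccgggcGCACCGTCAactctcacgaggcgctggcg
Prdx1, chr4:116685446-116685494, plus strand: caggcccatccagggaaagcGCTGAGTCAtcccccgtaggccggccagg
Txnrd1, chr10:82859094-82859142, plus strand: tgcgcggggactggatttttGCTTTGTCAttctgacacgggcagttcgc
Nfe2l2, chr2:75704875-75704913, minus strand: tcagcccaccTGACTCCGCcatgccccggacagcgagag
The core of Prdx1 began 133 bases before its start site and that of Nfe2l2 240. That of Gclm began 134 bases before the start of the counted transcript at base 122245557, which lies inside the gene span given above. That of Txnrd1 began 92 bases before one of several start sites, at base 82859206, whose transcripts have no base of their own, so the Txnrd1 counts come from transcripts with other starts. These matches describe letters in a window and show no binding. Of these 4 genes only Gclm was called. Among the tested members with a match that is not shown, Srxn1 was called lower, and Gstm5 and Sod1 were not called.

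**Figure D2:**
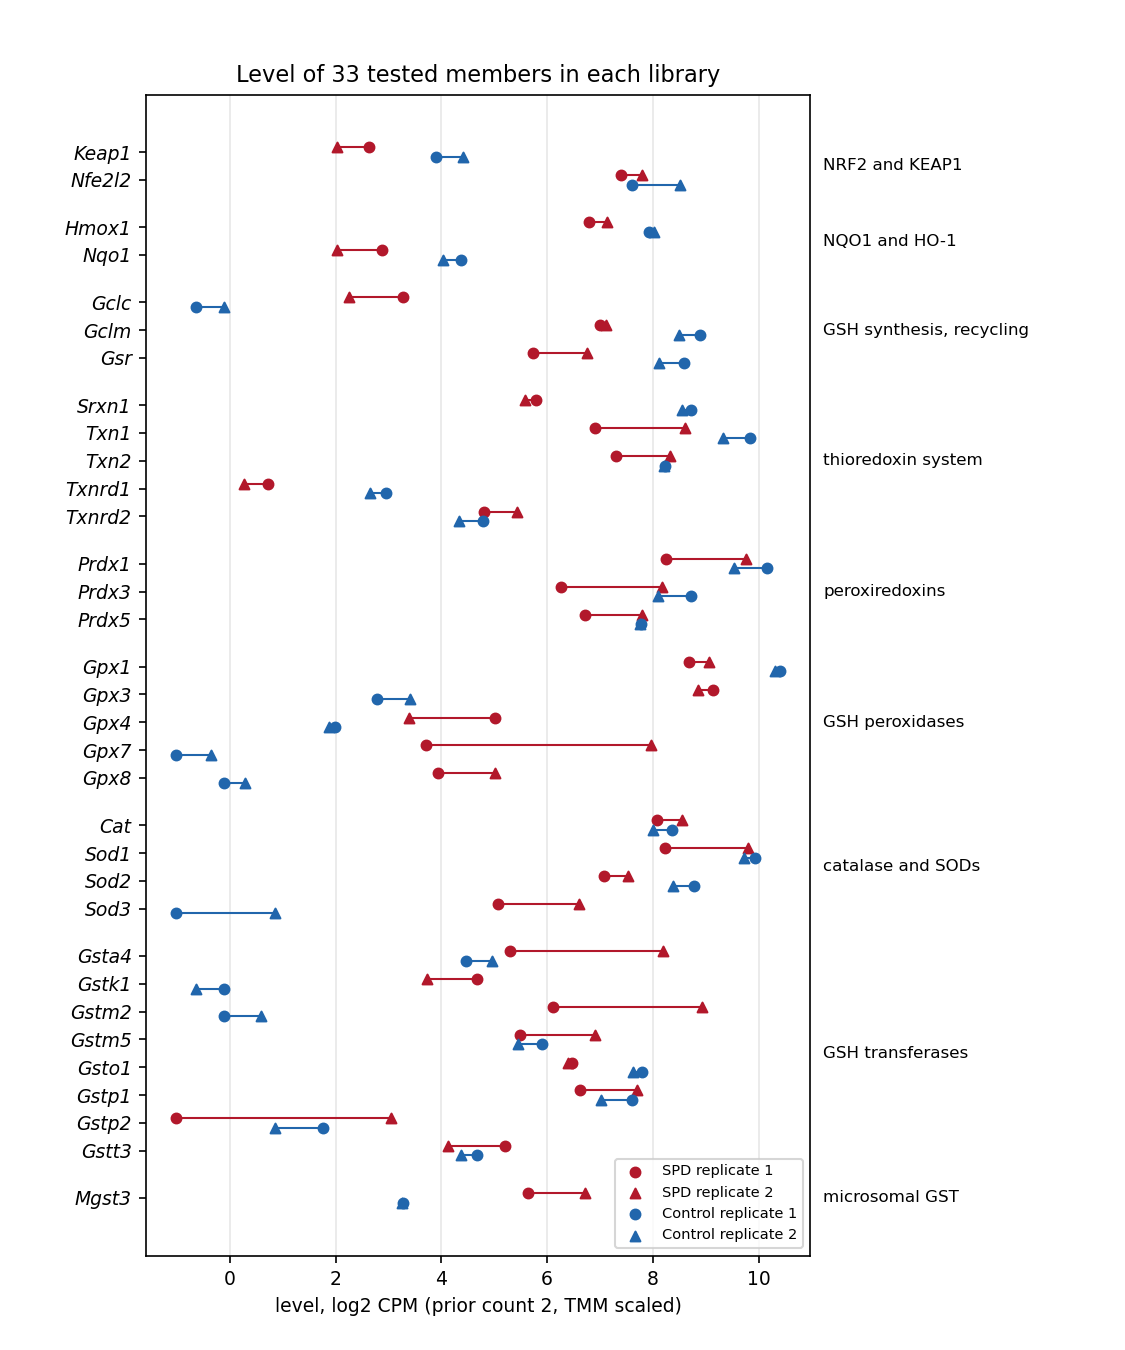
Level of each tested gene in the 4 libraries as log2 CPM (prior count 2), SPD in red above and Control in blue below, with circles for replicate 1 and triangles for replicate 2; lines join the replicates of a group. Srxn1 has narrow, well separated groups, whereas the SPD libraries lie far apart for Gpx7, Gstm2 and Gsta4.

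Peroxiredoxins, the thiol enzymes that remove most of the hydrogen peroxide of the cytosol and mitochondria, were not called in any of 3 tested cases. Prdx1 had 304 and 873 CPM in SPD and 1142 and 737 CPM in Control (-0.67 ± 0.64, edgeR adjusted p = 0.467). The mitochondrial Prdx3 had 76.6 and 289 CPM in SPD and 421 and 272 CPM in Control (-0.91 ± 0.67, edgeR adjusted p = 0.346). Prdx5 had 105 and 222 CPM in SPD and 219 and 217 CPM in Control (-0.40 ± 0.55, edgeR adjusted p = 0.62). In each of the 3, SPD replicate 1 was the lowest of the 4 libraries and SPD replicate 2 lay within or next to the Control values. Prdx2, Prdx4 and Prdx6 had at most 26 counts in all, on 226, 441 and 111 bases of their own, and were not tested. Prdx6b had 8 and 6 counts in SPD and 0 and 0 in Control, at least 26.7-fold higher as a share of all counts, at a floor of 3 counts for the pooled Control group. Its 2889 bases would collect 9.23 counts of receptor background in SPD replicate 1, more than the 8 seen.

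Of 9 glutathione peroxidase genes 5 were tested, 3 were called higher and 0 lower by edgeR, beside 24.8% and 3.99% of all tested genes, and 2 of the 3 (Gpx7 and Gpx8) passed the filter only through SPD. Gpx1, the abundant cytosolic and mitochondrial form, had 358 and 755 counts in SPD and 9331 and 8832 in Control. That was 409 and 537 CPM in SPD and 1352 and 1278 CPM in Control, without overlap, and the change of -1.47 ± 0.53 was not called (edgeR adjusted p = 0.0699). Gpx1 was called lower with upper-quartile scaling, with library totals, with DESeq2, among genes of a single transcript row and without SPD replicate 2. Gpx3 (chr11:54902854-54910387, plus strand), the secreted plasma form, had 490 and 646 counts in SPD and 44 and 70 in Control. It averaged 510 ± 71.0 CPM in SPD and 8.25 ± 2.65 CPM in Control (SD, n = 2 each), and both SPD libraries were high. It rose by 5.94 ± 0.64 on the log2 scale (edgeR adjusted p = 0.00281), and it was called in 15 of 17 alternative settings.

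Gpx7 and Gpx8, peroxidases of the endoplasmic reticulum that take part in oxidative protein folding, had almost no Control reads. Gpx7 (chr4:108400217-108406713, minus strand) had 11 and 351 counts in SPD and 0 and 2 in Control, a pooled ratio of 1035 (95% counting interval 284.5 to 8580). The fitted value was 9.58 ± 1.63 (edgeR adjusted p = 0.00543). It was 10.53 without SPD replicate 1, 6.27 without SPD replicate 2, 8.69 without Control replicate 1 and 11.67 without Control replicate 2. SPD replicate 2 carried nearly all of its reads, and in replicate 1 the receptor background would give 2.97 of the 11 counts. Gpx8 (chr13:113042757-113046430, minus strand) had 13 and 45 counts in SPD and 3 and 5 in Control, and rose by 5.32 ± 0.97 (edgeR adjusted p = 0.00679). Gpx4, which removes lipid peroxides in membranes, had 28 and 14 counts in SPD and 24 and 22 in Control, or 32.0 and 9.97 CPM against 3.48 and 3.18 CPM. Its groups did not overlap and the change was not called (2.56 ± 0.88, edgeR adjusted p = 0.0608). These are sums over transcript rows on which the SPD replicates did not agree. A row with 228 bases of its own had 24 and 0 counts in SPD and 4 and 1 in Control. Another, with 282, had 3 and 14 counts in SPD and 20 and 21 in Control. Gpx2 had 13 and 0 counts in SPD and 0 and 2 in Control, with the SPD reads in replicate 1 alone, and was not tested. Gpx5 had 6 and 0 counts in SPD and 0 and 1 in Control, Gpx6 had none, and the pseudogene Gpx2-ps1 had 1 count, in Control.

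Among catalase and the superoxide dismutases only the extracellular enzyme was called. That is 1 of 4 tested genes higher and 0 lower by edgeR, beside 24.8% and 3.99% of all tested genes. Sod3 (chr5:52363804-52369738, plus strand), which is secreted and bound to the matrix, had 29 and 136 counts in SPD and 0 and 9 in Control. It passed the filter only through SPD, so a rise is built in. In SPD replicate 1 the receptor background would give 6.54 of its 29 counts. It rose by 6.61 ± 1.12 (edgeR adjusted p = 0.00591), with 33.2 and 96.8 CPM in SPD and 0 and 1.30 CPM in Control. The value was 7.16 without SPD replicate 1, 5.69 without SPD replicate 2, 5.67 without Control replicate 1 and 10.66 without Control replicate 2. Sod1, the copper and zinc enzyme of the cytosol, had 301 and 894 CPM in SPD and 973 and 851 CPM in Control, where SPD replicate 2 fell between the Control libraries (-0.60 ± 0.62, edgeR adjusted p = 0.506). Sod2, the manganese enzyme of mitochondria, had 135 and 184 CPM in SPD and 437 and 332 CPM in Control. Its groups did not overlap, but the change was not called (-1.26 ± 0.52, edgeR adjusted p = 0.104). Cat, the peroxisomal catalase, had 269 and 373 CPM in SPD and 328 and 257 CPM in Control, with overlapping groups and a log2 fold change of 0.14 ± 0.51 (edgeR adjusted p = 0.866).

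Of 22 cytosolic and mitochondrial glutathione transferases, 8 were tested, 3 were called higher and 0 lower by edgeR, beside 24.8% and 3.99% of all tested genes, and 2 of the 3 (Gstm2 and Gstk1) passed the filter only through SPD. Gstm2 (chr3:107981702-107986420, minus strand), a mu-class enzyme, had 60 and 685 counts in SPD and 3 and 7 in Control, or 68.6 and 488 CPM against 0.435 and 1.01 CPM. It rose by 8.54 ± 1.19 (edgeR adjusted p = 0.00382), and although the SPD libraries lay far apart, both were far above Control. Gstk1, a kappa-class enzyme of mitochondria and peroxisomes, had 22 and 18 counts in SPD and 3 and 1 in Control, and rose by 5.83 ± 1.06 (edgeR adjusted p = 0.00611). Gsta4 (chr9:78191966-78209349, plus strand), which detoxifies the lipid peroxidation product 4-hydroxynonenal, had 38.9 and 293 CPM in SPD and 21.7 and 30.5 CPM in Control. It was called at 2.69 ± 0.85 (edgeR adjusted p = 0.0435). Its value rests on SPD replicate 2, without which it was 0.64 ± 0.60 (edgeR adjusted p = 0.394). The call also depends on the form of the test, since the legacy edgeR test gave an adjusted p of 0.0571.

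Other transferases were not called. Gsto1, an omega-class enzyme, had 88.0 and 84.0 CPM in SPD and 220 and 196 CPM in Control, narrow groups without overlap (-1.28 ± 0.51, edgeR adjusted p = 0.0963). Gstp1, the pi-class enzyme, had 98.3 and 206 CPM in SPD and 195 and 129 CPM in Control, with overlap and a value of -0.08 ± 0.57 (edgeR adjusted p = 0.935). Gstm5, Gstt3 and Gstp2 had log2 fold changes of 0.69, 0.20 and 1.13 and adjusted p between 0.441 and 0.86, and Gstp2 rested on 0 and 11 counts in SPD and 20 and 9 in Control. The Gstm genes adjoin each other on chromosome 3, as the Gstp genes do on chromosome 19, and their copies are alike in sequence, so reads may be divided between them in a way the counting does not show. Of the 14 untested transferases 11 had under 300 bases of their own and 7 had no count.

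The microsomal transferases are membrane proteins of the same detoxifying class. Mgst3 (chr1:167371966-167393841, minus strand) had 43 and 148 counts in SPD and 63 and 63 in Control, or 49.2 and 105 CPM against 9.13 and 9.12 CPM. It rose by 3.10 ± 0.66 (edgeR adjusted p = 0.00869). Mgst2 had 41 and 0 counts in SPD and 2 and 4 in Control, on 1135 bases of its own. All of its SPD reads came from replicate 1, where the receptor background would give 3.63 of them, and it was not tested. Mgst1 had 2 and 1 counts in SPD and 0 and 0 in Control on 70 bases of its own.

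**Figure D3:**
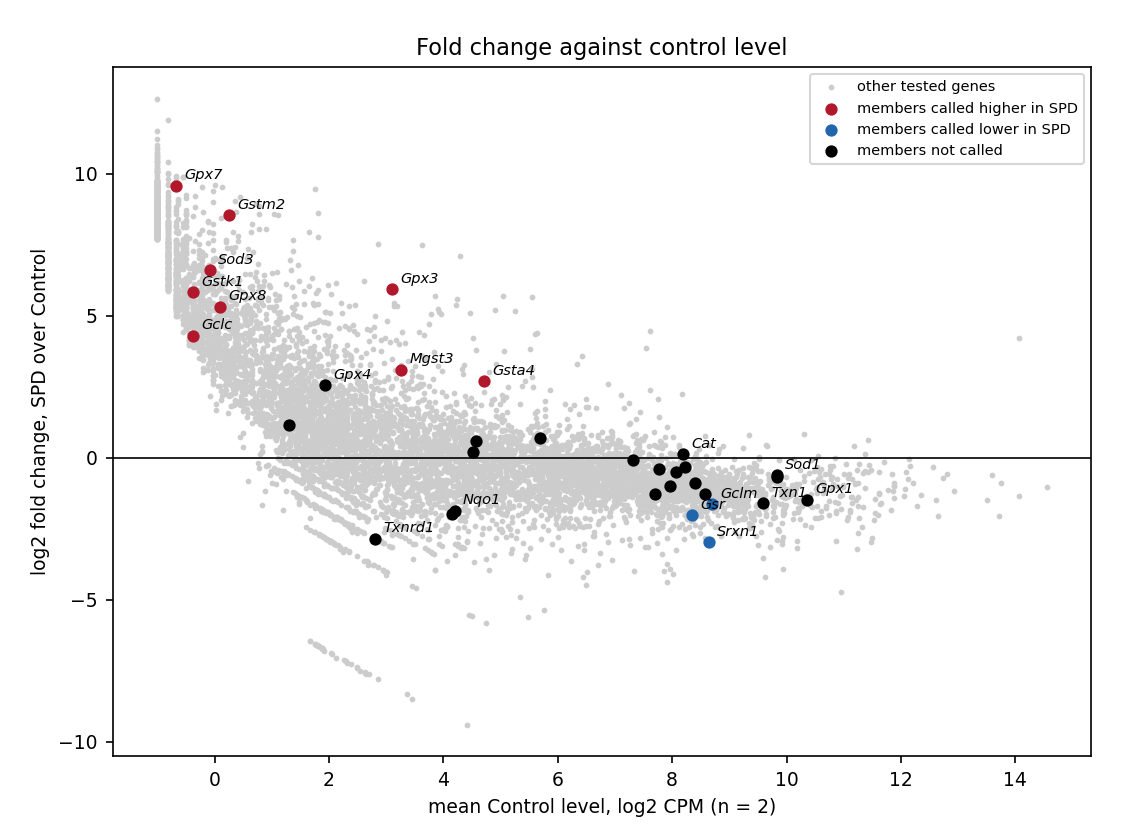
Log2 fold change of SPD over Control against the mean Control level in log2 CPM (prior count 2) for 7836 tested genes in grey, with the 33 members in colour. Of the red members 6 lie at the left edge with mean Control levels of at most 0.25, among many other genes that passed the filter through SPD alone, and Gpx3, Mgst3 and Gsta4 lie above 3.

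Levels between genes were compared per kb of own bases, as scaled CPM per kb. In Control the order was Sod1 (1501 and 1313), Gpx1 (1294 and 1223), Txn1 (875 and 615) and Prdx1 (815 and 526), where Txn1 and Prdx1 overlapped. In SPD the highest mean levels per kb were those of Sod1 (464 and 1380), Gpx1 (392 and 514), Prdx1 (217 and 623), Gpx3 (369 and 303) and Gstm2 (65.5 and 466). Gpx3 stood 4th of the 33 in SPD and 25th in Control, and Gstm2 5th and 30th. These are ranks of group means, and the SPD mean of Gstm2 rests mostly on SPD replicate 2. Gstm2 also passed the filter only through SPD, so its higher rank there is built in. Srxn1 averaged 18.2 CPM per kb in SPD and 142 in Control, 28th and 12th of the 33. All 59 genes together held 0.406% and 0.571% of SPD counts and 0.807% and 0.682% of Control counts. Without the ribosomal row AY036118 the shares were 0.576% and 0.824% in SPD and 0.821% and 0.694% in Control, so that the groups overlapped.

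The SPD libraries did not report these genes alike. Of the 33 members, 23 were lower in SPD replicate 1 than in SPD replicate 2. The same held for 24 of the 36 tested genes of the related list given below. The share over all tested genes was not computed, so this count is not read as particular to the members. As the difference from the Control mean in log2 CPM, Prdx3 had -2.14 in SPD replicate 1 and -0.23 in replicate 2, and Txn1 had -2.69 and -0.98. Srxn1, at -2.85 and -3.05, and Gclm, at -1.69 and -1.57, had nearly the same value in both.

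The calls depended on which library was present. This held over the whole table as well as among the members, so it is not read as particular to the members. Without SPD replicate 2 the log2 fold change was 3.31 for Gpx4, 0.64 for Gsta4 and -1.63 for Gpx1. In the main fit these were 2.56, 2.69 and -1.47. Without SPD replicate 1 it was 5.80 for Gpx3, 3.53 for Mgst3 and -3.06 for Srxn1. Gclc, Gpx8, Gsta4, Gstk1, Gclm, Gsr and Srxn1 lost their calls without SPD replicate 1. Without Control replicate 2, Gsta4, Gstk1, Mgst3, Gclm and Gsr lost theirs. Without Control replicate 1, 0 of 33 were called by edgeR, and 0 of all 7836 genes were; 9 members and 1926 genes were at an unadjusted p under 0.05. With 1 library left in a group, that library was assumed to vary like the pair of the other group. The 12 called members kept their sign in each of these fits, but several log2 fold changes moved. Gstm2 was 9.35 without SPD replicate 1, 6.58 without SPD replicate 2 and 9.20 without Control replicate 2. Gsta4 was 3.48 without SPD replicate 1. Without SPD replicate 2 Gpx8 was 4.69, Mgst3 2.49 and Gclc 4.93. Gclc was 5.11 without Control replicate 2, and Gstk1 was 6.72 without Control replicate 1.

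**Figure D4:**
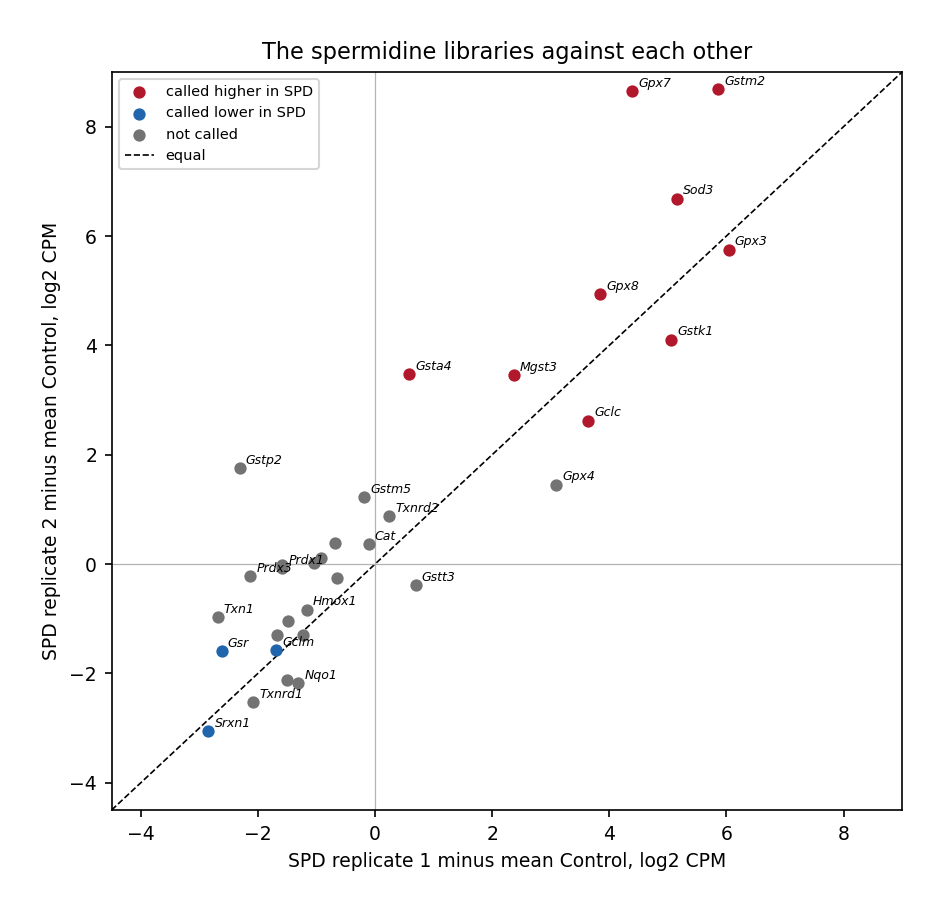
Difference from the mean Control level in log2 CPM for the 33 tested genes in SPD replicate 1 (horizontal) and SPD replicate 2 (vertical), with a dashed line of equality and names on some points. Srxn1 and Gclm lie near the line, and Gpx7, Gsta4 and Txn1 lie well above it.

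Other genes of glutathione, NADPH and NRF2 biology were read from a list of 64 that excludes the members. Of these, 36 were tested, 3 were higher and 1 was lower, and their median log2 fold change was -0.72, with 12 positive and 24 negative values. Over all tested genes 24.8% were higher, 3.99% were lower and the median was 0.23. Among the 30 that both Control libraries carried over the filter limit, 0 were higher by edgeR, 1 was lower and the median was -1.01, beside 3.51% higher, 6.1% lower and a median of -0.54 over all genes of that kind. Mt2, a metallothionein that binds zinc and is induced by metals and stress, had 98 and 190 counts in SPD and 7227 and 5542 in Control, and fell by 2.90 ± 0.55 (edgeR adjusted p = 0.00749). The genes that rose were Aox1, an aldehyde oxidase, at 5.51 ± 1.11 (edgeR adjusted p = 0.00755), and the carbonyl reductases Cbr1 at 4.71 ± 0.95 (0.00765) and Cbr3 at 4.33 ± 0.92 (0.00834). Each of these 3 had at most 43 counts in any Control library and passed the filter through SPD. The next genes, not called, were chosen after their values were seen. Slc7a11, the cystine importer that feeds glutathione synthesis, had 2 and 0 counts in SPD and 113 and 82 in Control and was not called (-3.94 ± 1.43, edgeR adjusted p = 0.0645). The NADPH-producing enzymes were mixed and not called: G6pdx had a log2 fold change of -1.27, Idh1 -1.97, Idh2 -0.13, Nnt 0.45 and Me1 1.59, with edgeR adjusted p between 0.155 and 0.892. Ftl1, the ferritin light chain, had 2062 and 5967 counts in SPD and 107538 and 80631 in Control (-2.04 ± 0.74, edgeR adjusted p = 0.0702).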

How the data were processed

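Whole-number read counts, with no scaling applied, make up the deposited table: 106519 RefSeq transcript rows by 4 libraries, per the file headers. The submitters' processing notes name HISAT2, DESeq2 and mm9; no source used here names the counting program. Rows matched to symbols in a RefSeq table of GRCm38 (86032 of 106519) were summed per gene. Since 88.5% of them fell within that build's span of their gene, positions are GRCm38. Transcript rows wholly covered by others (49975) carried up to 0.00140% of a library's counts, which is why genes are measured on unshared bases.

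Genes that passed edgeR's filterByExpr (count minimum 10, total minimum 15) were normalised with TMM. The test was glmQLFTest of edgeR 4.0.16 after glmQLFit with legacy=FALSE, in R 4.3.3, with group as the only term, and calls used 0.05 after Benjamini-Hochberg adjustment. The standard error given with a log2 fold change is its absolute value divided by the square root of the test's F statistic. It was back-calculated from the test and is not a separately fitted error. The planned design named edgeR's quasi-likelihood test without saying which form. In all, 10 edgeR settings were fitted with this filter, and legacy=FALSE was adopted because it matched an earlier processing of these data, after the calls of the settings had been seen. It made the most calls of the 10 (2256; the fewest were 1861), and Gsta4 was called with it alone. Alternatives used limma 3.58.1, DESeq2 1.42.0, other scalings and filters, thinned counts, subtraction of the receptor background and left-out libraries. Counting intervals are exact Clopper-Pearson (95%) and, like floors, cover counting error only. At each library's full total, 3 counts equal 3.81 and 1.75 CPM in SPD, against 0.416 and 0.421 CPM in Control. Replicates differed by far more than sampling noise (chi-square per degree of freedom 32.2 in SPD, 40.8 in Control). This measure grows with depth, so it does not rank the groups. The correlation of log2 CPM across genes was 0.73 for the SPD pair and 0.97 for the Control pair. The procedure was tested on simulated data. The members, lists and tests were chosen with earlier results of these data known. By rule, every called member and a set of central enzymes are described in full, with called pathway genes; other members and pathway genes were picked after their values were seen.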

Additional observations from a re-analysis of the deposited data

How the results depend on the processing

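The form of the edgeR test was a choice made after seeing calls. Over 10 edgeR settings with the same filter the calls numbered 1861 to 2256 genes, 8 to 9 members higher and 2 to 3 lower, and the setting reported gave the most. The legacy test, added after seeing the data, called 1879 genes, 8 members higher and 2 lower, with an adjusted p of 0.0571 for Gsta4 and 0.0504 for Gclm. With no low-count filter the reported form called 0 genes, 0 members and 0 pathway genes in either direction (4255 genes and 20 members at an unadjusted p under 0.05), whereas the legacy form called 1001 genes, 4 members higher and 1 lower; the cause was not tested.

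Under the alternatives, the 12 called members kept their sign wherever they were tested. With 1 CPM required in every library 275 genes, 2 members higher and 1 lower, and 0 pathway genes higher were called, with fewer genes tested. Members called lower numbered 5 with library totals (of the tested genes), 1 with thinned Controls and 1 at equal depth without AY036118. These last thinned fits called 1040 and 795 genes, and subtraction of the receptor background 1490. Pathway genes called lower numbered 5 with upper-quartile scaling, 6 with library totals and 4 with each of DESeq2, limma-voom and single-row genes. They numbered 2 after background subtraction. Of pathway genes 36 were tested, or 21 among single-row genes. In either direction, upper-quartile scaling called 2284 genes of the whole table, library totals 2189, DESeq2 2194, limma-voom 1954 and the single-row fit 1771. Genes called lower alone were not counted over the table in these settings. The member and pathway counts are therefore not read as particular to these lists. Leaving out 1 library at a time gave 0 to 3725 genes, 0 to 9 members higher, 0 to 9 members lower, 0 to 4 pathway genes higher and 0 to 12 lower; the cause was not tested.

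The replicate numbers did not pair the libraries (correlation of deviations -0.03 across genes). With a replicate block 1775 genes, 8 members higher and 1 lower, and 3 pathway genes higher and 1 lower, were called.

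The medians of members and of all genes, -0.31 and 0.23 as reported, moved with the setting. They were -0.21 and 0.37 with upper-quartile scaling, -0.30 and 3.56 with no filter, 0.027 and 0.0045 without SPD replicate 1, -0.86 and 0.40 without SPD replicate 2, 0.11 and 0.16 with thinned Controls, and -0.072 and -0.0083 after background subtraction. Their order turned without SPD replicate 1 and at equal depth, where they were 0.34 and 0.19; the cause was not tested. Signs turned only in members that were not called. Gstp1 had 0.011 with upper-quartile scaling, 0.27 with the 1 CPM filter, 0.36 with thinned Controls, 0.53 at equal depth and 0.16 after background subtraction. Txn2 had 0.036 with the 1 CPM filter, 0.17 with thinned Controls and 0.35 at equal depth. Prdx5 had 0.049 with thinned Controls and 0.34 at equal depth, where Nfe2l2 had 0.16 and Sod1 0.046. Without a filter Gstt3 had -0.34 and Cat -0.30, and with limma-voom Gstp2 had -0.039. With 1 library left out at a time, Gstp1 ranged between -0.68 and 0.35, Txn2 between -0.86 and 0.10, Prdx5 between -0.99 and 0.027, Gstt3 between -0.40 and 0.75, Cat between -0.070 and 0.39, Gstp2 between -6.39 and 1.89, Gstm5 between -0.16 and 1.21, and Nfe2l2 between -0.83 and 0.018. Depth limits SPD replicate 1 most, where 3 counts equal 3.81 CPM.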
